A study of Rattus norvegicus with 24 samples.

Results

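The 8 genes described here are those through which neurons make, store, recover and break down acetylcholine and those through which cells sense it at muscarinic receptors. They were chosen by symbol from a table of 35032 rat genes, by a rule that reads the symbol alone, though the set was picked with earlier results of these data known: Chat, Slc18a3, Slc5a7 and Ache, and the receptor genes Chrm1, Chrm2, Chrm3 and Chrm4. Each symbol matched 1 row, and all 8 passed the low-count filter in every comparison. Acetylcholine is made in cholinergic neurons by choline acetyltransferase (Chat), loaded into vesicles by the vesicular acetylcholine transporter (Slc18a3), and cleared from the synapse by acetylcholinesterase (Ache), after which the choline is taken up again by the high-affinity choline transporter (Slc5a7). The M1 and M3 receptors (Chrm1, Chrm3) couple to Gq and phospholipase C, whereas M2 and M4 (Chrm2, Chrm4) couple to Gi/o and lower cyclic AMP. In the forebrain M1 and M4 mRNA is abundant in medium spiny neurons of the striatum, and cholinergic neurons lie in the basal forebrain and among the interneurons of the striatum.

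The mRNA libraries came from male Sprague-Dawley rats bought at 7 weeks of age. The regions sampled were the hypothalamic paraventricular nucleus (PVN) and the central amygdala (CEA), with 3 libraries for each of 4 treatments in either region. Normal controls (NC) had no surgery, HT rats had a partial hepatectomy under isoflurane, EA rats had the hepatectomy with electroacupuncture at ST36 and SP6 24 h before and right after it, and SEA rats had the hepatectomy with needles left unconnected. All 4 groups were held in the restraint device, and tissue was taken 24 h after the last stimulation. The methods speak of 12 rats and of brain samples that did not come from the same animal, and the labels do not tie a library to a rat, so libraries were treated as independent and p-values measure the spread between libraries. The tissue is bulk, so that fewer cells of a type and less RNA per cell cannot be told apart.

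Total counts were 13152772 to 18607032 per library. The hypothalamic markers set the regions apart as labelled: Sim1, a transcription factor of these neurons, lay between 9.73 and 16.7 CPM (counts scaled to a common library size with TMM factors) in the PVN libraries and at no more than 0.959 CPM in the CEA libraries. Of central amygdala markers, Prkcd, Penk and Pdyn were called higher and Nts lower in the CEA, the sum of the 4 being 984 to 1686 CPM there and 363 to 437 CPM in the PVN. The libraries labelled CEA also carried striatal markers at high levels. The summed level of 7 striatal genes (Drd1, Drd2, Adora2a, Rgs9, Ppp1r1b, Rasd2 and Pde10a) had a lowest, median and highest value of 259.6, 284 and 376 CPM in the PVN and of 2235, 3929 and 6745 CPM in the CEA, and none of the 7 was at 0 in any library. The central amygdala itself holds neurons with several of these transcripts. The share of mitochondrial counts was 7.07 to 8.77% in the PVN and 10.06 to 14.4% in CEA libraries, apart from CEA EA replicate 2, where it was 3.80%.

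In the coordinates of the count table, which names no genome build, Chat spans chromosome 16 from 8577840 to 8686131 on the minus strand. Slc18a3 lies wholly within it on the same strand, from 8682669 to 8685529, so that 2861 bases belong to both gene spans and their counts are not independent where the models share sequence. Slc5a7 spans 5294381 to 5330815 on chromosome 9 and Ache 22472358 to 22478753 on chromosome 12, both on the minus strand. Chrm1 (chromosome 1, 224882439 to 224884205), Chrm2 (chromosome 4, 64088900 to 64091090) and Chrm4 (chromosome 3, 80833272 to 80841006) are on the plus strand, and Chrm3 (chromosome 17, 63990599 to 63994169) is on the minus strand. The span of Chrm4 overlaps that of Mdk, on the other strand, by 2 bases.

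The start-site windows of the 5 genes that were higher in the CEA are shown because their levels moved together between the regions. They are RefSeq windows of assembly GRCr8, from 250 bases before to 50 bases after the annotated start, read along the gene: Chat chr16:7723367-7723666 (minus strand), Slc18a3 chr16:7722765-7723064 (minus), Slc5a7 chr9:7953460-7953759 (minus), Chrm1 chr1:214996109-214996408 (plus) and Chrm4 chr3:98348830-98349129 (plus). Capitals mark the TATA box TATAAA, the GC box GGGCGG and the CCAAT box on either strand, with overlapping matches run together.
Chat: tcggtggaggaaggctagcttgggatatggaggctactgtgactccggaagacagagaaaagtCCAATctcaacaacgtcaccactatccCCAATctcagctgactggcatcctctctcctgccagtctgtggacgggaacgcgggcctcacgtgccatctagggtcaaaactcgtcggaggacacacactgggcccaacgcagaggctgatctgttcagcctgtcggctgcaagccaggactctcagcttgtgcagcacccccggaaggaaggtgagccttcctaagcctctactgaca
Slc18a3: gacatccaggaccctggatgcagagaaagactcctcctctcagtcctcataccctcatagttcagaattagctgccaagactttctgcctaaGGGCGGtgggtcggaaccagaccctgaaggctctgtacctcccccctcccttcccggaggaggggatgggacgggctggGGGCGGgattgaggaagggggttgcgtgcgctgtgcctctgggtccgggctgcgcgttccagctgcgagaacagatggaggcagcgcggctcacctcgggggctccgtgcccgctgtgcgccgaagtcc
Slc5a7: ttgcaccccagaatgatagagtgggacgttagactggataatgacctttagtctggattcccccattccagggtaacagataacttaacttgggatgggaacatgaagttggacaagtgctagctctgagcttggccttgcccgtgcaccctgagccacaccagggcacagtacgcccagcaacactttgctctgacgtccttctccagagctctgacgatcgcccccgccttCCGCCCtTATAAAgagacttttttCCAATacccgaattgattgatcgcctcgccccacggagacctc
Chrm1: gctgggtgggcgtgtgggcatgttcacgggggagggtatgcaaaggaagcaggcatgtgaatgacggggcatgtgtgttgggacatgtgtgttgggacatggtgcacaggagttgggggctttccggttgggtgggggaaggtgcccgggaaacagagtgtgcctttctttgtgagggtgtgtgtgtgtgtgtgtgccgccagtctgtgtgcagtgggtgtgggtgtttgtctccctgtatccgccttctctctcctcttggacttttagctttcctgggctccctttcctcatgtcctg
Chrm4: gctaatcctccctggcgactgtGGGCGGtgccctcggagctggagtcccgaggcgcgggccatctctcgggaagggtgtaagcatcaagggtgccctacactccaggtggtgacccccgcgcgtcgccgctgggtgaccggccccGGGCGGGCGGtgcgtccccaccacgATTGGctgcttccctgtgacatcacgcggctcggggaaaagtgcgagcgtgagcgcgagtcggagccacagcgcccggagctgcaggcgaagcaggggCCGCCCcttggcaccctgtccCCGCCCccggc

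The Chat and Slc18a3 windows are 302 bases apart, with Chat upstream, as in the shared locus in which the transporter gene sits inside the first part of the enzyme gene. TATAAA was found in the window of Slc5a7 alone of the 8 genes and in 14.2% of all 33469 RefSeq windows of that length. GGGCGG was present in 6 of the 8 windows (Chrm2, Chrm3, Chrm4, Slc18a3, Slc5a7 and Ache) and in 33.1% of all windows, and CCAAT in 4 (Chrm4, Chat, Slc5a7 and Ache) and in 37.5% of all. The window of Chrm1 held none of these 3. The cyclic AMP response element TGACGTCA, in 1.83% of all windows, and the homeobox core TAATTA, in 5.36%, were in none of the 8, whereas the E-box CANNTG, in 72.1% of all, was in 7, Chrm2 being the exception. A match is a run of letters and was not tested as a binding site.

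The regions differed in 7 of the 8 genes when all 24 libraries were compared with treatment as a covariate. The genes of acetylcholine synthesis, storage and choline uptake and the receptors Chrm1 and Chrm4 were higher in the CEA, and Ache and Chrm3 were lower. Across all genes tested, 56.3% differed at the same threshold (edgeR quasi-likelihood test, adjusted p under 0.05), 26.9% being higher and 29.4% lower in the CEA, so a call as such was common. The members' median log2 fold change was 2.69, and that of all genes was -0.01.

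Among the genes of cholinergic neurons, Chat, the synthesising enzyme, had a lowest, median and highest level of 0.379, 2.33 and 6.30 CPM in the 12 PVN libraries and of 15.6, 22.3 and 38.0 CPM in the 12 CEA libraries. In the PVN these values rested on 6 to 98 counts, and in the CEA on 215 to 582. The log2 fold change of the CEA against the PVN was 3.18 (SE 0.29, adjusted p = 2.93e-09). Slc18a3, the vesicular transporter, lay at 1.76, 2.91 and 7.26 CPM in the PVN and at 15.2, 24.6 and 31.4 CPM in the CEA, a log2 fold change of 2.92 (SE 0.20, adjusted p = 2.21e-11). Slc5a7, the choline transporter, lay at 3.35, 10.3 and 19.7 CPM against 35.3, 55.2 and 81.6 CPM, and differed by 2.47 on the log2 scale (SE 0.22, adjusted p = 1.68e-09). For all 3 genes the highest PVN library stayed below the lowest CEA library.

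M1 and M4, the receptors abundant in the striatum, showed the widest gap between the regions over all 24 libraries. The order differed within EA, where Chat (log2 fold change 3.66) and Slc18a3 (3.38) stood above Chrm4 (3.36) and Chrm1 (2.92). Chrm1 was at 2.20, 3.16 and 4.44 CPM (lowest, median and highest) in the PVN and at 19.2, 38.4 and 56.0 CPM in the CEA. Its log2 fold change was 3.55 (SE 0.17, adjusted p = 3.53e-14). Chrm4 was at 3.59, 4.52 and 7.15 CPM in the PVN and at 27.6, 46.8 and 76.4 CPM in the CEA, and its difference was 3.39 on the log2 scale (SE 0.15, adjusted p = 2.05e-14). Neither gene overlapped between the regions. In the CEA both varied between libraries, CEA SEA replicate 3 being the lowest for each.

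Ache, which ends the signal, went the other way. It was the steadiest of the 8 genes between libraries, at 193, 209 and 253 CPM in the PVN and 108, 126 and 151 CPM in the CEA, and the 2 ranges did not meet. The log2 fold change was -0.74 (SE 0.06, adjusted p = 2.83e-10). Thus 6 of the 8 genes, 5 higher and 1 lower in the CEA, had no overlap between the 12 libraries of each region, which held for 14.3% of all genes tested, 6.46% higher and 7.87% lower.

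The M2 and M3 receptors differed least between the regions. Chrm3 ranged from 16.2 to 35.7 CPM around a median of 28.1 in the PVN and from 14.0 to 31.2 CPM around 22.5 in the CEA. The ranges overlapped widely, and the log2 fold change was -0.30 (SE 0.12, adjusted p = 0.0439). This call was not kept under DESeq2 size factors in edgeR (adjusted p = 0.0604), without the low-count filter (0.0699) or with DESeq2 itself (0.0508), and it was lost in 18 of 24 fits that left out 1 library. Over all alternatives its adjusted p ran from 0.00497 to 0.0786. Chrm2 ranged from 3.92 to 16.8 CPM around 14.5 in the PVN and from 5.12 to 16.9 CPM around 10.8 in the CEA, and its log2 fold change of -0.20 (SE 0.18, adjusted p = 0.336) did not pass the test.

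**Figure D1:**
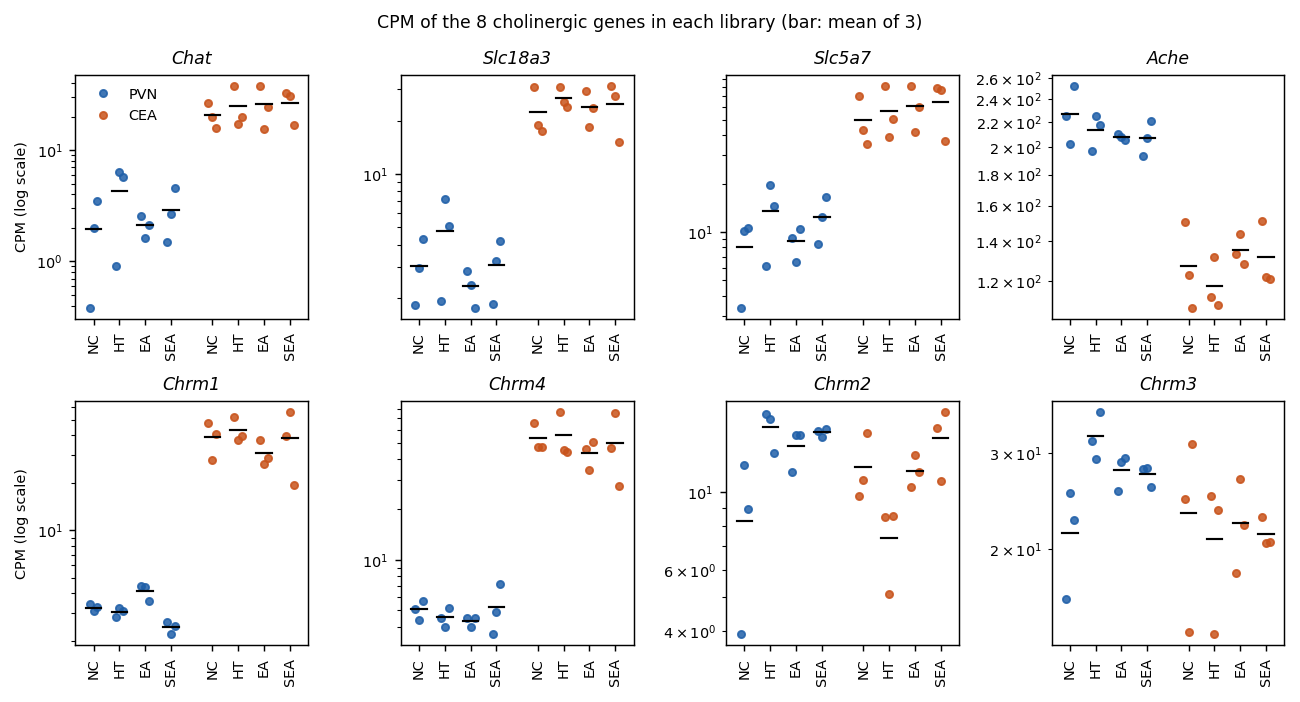
CPM of each gene (log axis, a separate scale for each gene) in every library, with PVN in blue and CEA in orange, ordered by treatment, and black bars at the mean of 3 libraries. Chat, Slc18a3, Slc5a7, Chrm1 and Chrm4 lie higher in every CEA library than in any PVN library, Ache lies lower, and Chrm2 and Chrm3 overlap.

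The region difference was then taken within each treatment, with 3 libraries against 3. The 5 genes higher in the CEA and Ache were called in all 4 treatments, and 6, 7, 6 and 7 of the 8 members were called in NC, HT, EA and SEA, where 26.4%, 21.3%, 27.8% and 30.5% of all genes were. The share of all genes called higher in the CEA was 12.7%, 11.1%, 14.1% and 15.1% in the same order, and the share called lower was 13.7%, 10.2%, 13.8% and 15.4%. Across the treatments the log2 fold change ran from 2.59 to 3.66 for Chat, from 2.54 to 3.38 for Slc18a3, from 2.13 to 2.84 for Slc5a7, from 2.92 to 3.99 for Chrm1 and from 3.27 to 3.65 for Chrm4. For Ache it ran from -0.83 to -0.60. Chrm2 passed the test in HT alone, at -1.0 (SE 0.24, adjusted p = 0.0263), and was 0.50 (SE 0.38) in NC, -0.21 (SE 0.15) in EA and -0.03 (SE 0.17) in SEA. In the main fits Chrm3 passed in SEA alone, at -0.34 (SE 0.09, adjusted p = 0.0248). It was 0.12 (SE 0.30) in NC, -0.57 (SE 0.23) in HT and -0.29 (SE 0.15) in EA. Its SEA call was lost in 5 of 6 fits that left out 1 library (adjusted p up to 0.0972). The fit of all 8 groups lost it too (0.283) but called Chrm3 in HT (0.0425), as did library totals alone (0.0463). Without CEA EA replicate 2, Chrm3 was called in EA (0.0220). The HT count fell to 4 without PVN HT replicate 3, when Chat (adjusted p = 0.0699), Slc5a7 (0.0560) and Chrm2 (0.0546) missed the threshold, and the share of all genes called fell as well, to 10%. In HT the call of Chat was lost in 4 of 6 fits that left out 1 library. The others were without PVN HT replicate 2 (adjusted p = 0.0566), CEA HT replicate 1 (0.0546) and CEA HT replicate 3 (0.0517). The call of Chrm2 in HT was also lost without PVN HT replicate 1 (0.110) or replicate 2 (0.0969), its adjusted p over all alternatives running from 0.00160 to 0.110.

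**Figure D2:**
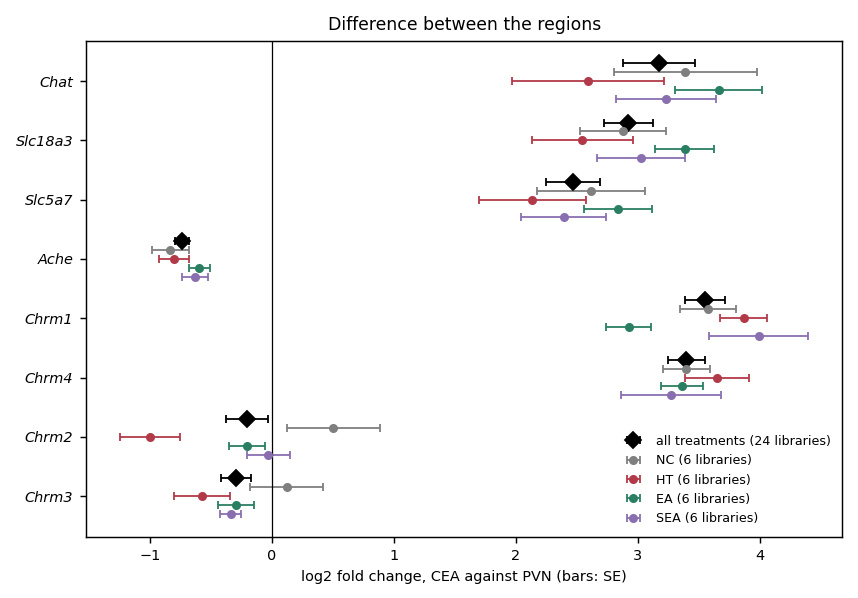
Log2 fold change of the CEA against the PVN for each gene (x axis), with bars of 1 SE, over all 24 libraries (black diamonds) and within each treatment (coloured points). Chat, Slc18a3, Slc5a7, Chrm1 and Chrm4 lie to the right of 0 and Ache to its left in all 4 treatments, while Chrm2 and Chrm3 lie on both sides.

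To set levels of different genes side by side, CPM was divided by the length of the gene model in kilobases. In the PVN the order of mean levels per kb (± SD, 12 libraries) was Ache at 63.9 ± 4.78, Chrm3 at 7.62 ± 1.35, Chrm2 at 5.92 ± 1.64, Slc5a7 at 2.13 ± 0.919, Chrm1 at 1.82 ± 0.386, Chrm4 at 1.74 ± 0.344, Slc18a3 at 1.15 ± 0.580 and Chat at 1.07 ± 0.711 CPM per kb. The steps from Ache to Chrm3, from Chrm3 to Chrm2 and from Chrm2 to Slc5a7 were seen in 12 of 12 libraries. The lower ranks were closer than the spread of their values, Slc5a7 exceeding Chrm1 in 8 libraries, Chrm1 exceeding Chrm4 in 7 and Slc18a3 exceeding Chat in 9, whereas Chrm4 exceeded Slc18a3 in 11.

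In the CEA the order was Ache at 38.3 ± 4.39, Chrm1 at 21.3 ± 6.21, Chrm4 at 18.4 ± 5.37, Slc5a7 at 11.6 ± 3.77, Chat at 9.42 ± 3.22, Slc18a3 at 8.54 ± 2.02, Chrm3 at 6.15 ± 1.40 and Chrm2 at 5.13 ± 1.5 CPM per kb. Ache exceeded Chrm1, Chrm4 exceeded Slc5a7, and Slc5a7 exceeded Chat in 12 of 12 libraries. Chrm1 stood above Chrm4 in 10 libraries, Chat above Slc18a3 in 7, Slc18a3 above Chrm3 in 9 and Chrm3 above Chrm2 in 9. Ache headed both regions, and the receptors changed places around it.

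The make-up of the summed mRNA of Chrm1 to Chrm4 was therefore nearly opposite. Chrm5, the fifth muscarinic receptor gene, is not a member and is left out of the shares. Its mean was 2.15 CPM per kb in the PVN, above those of Chrm1 and Chrm4, and 0.730 in the CEA. Of the summed CPM per kb of Chrm1 to Chrm4, Chrm3 made up 44.5% ± 2.50 and Chrm2 33.9% ± 6.23 in the PVN, and Chrm1 11.0% ± 3.55 and Chrm4 10.6% ± 3.38 (SD, 12 libraries). In the CEA Chrm1 made up 41.3% ± 4.95 and Chrm4 35.6% ± 4.29, and Chrm3 12.4% ± 3.26 and Chrm2 10.7% ± 4.77. The sum was 17.1 ± 2.70 CPM per kb in the PVN and 51.0 ± 11.1 in the CEA. The ranges of the sum, 10.1 to 19.7 and 34.4 to 69.5 CPM per kb, did not meet. The mean levels of Chrm2 and Chrm3 per kb were no higher in the CEA than in the PVN, so the higher CEA sum lay in Chrm1 and Chrm4.

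**Figure D3:**
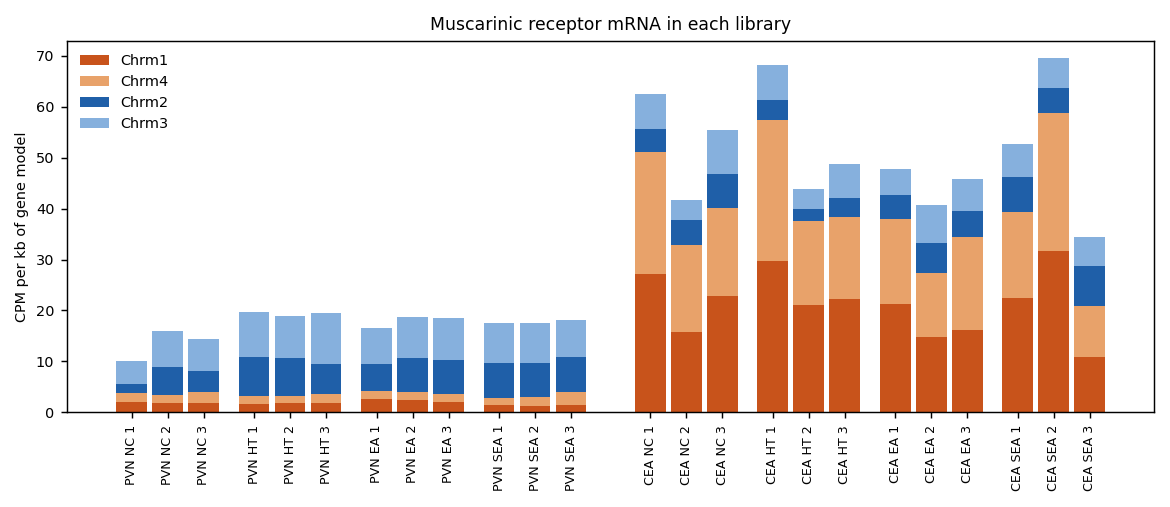
CPM per kb of gene model for Chrm1, Chrm4, Chrm2 and Chrm3, stacked, in each of the 24 libraries. The PVN bars reach 10.1 to 19.7 and are mostly Chrm2 and Chrm3 (blue), and the CEA bars reach 34.4 to 69.5 and are mostly Chrm1 and Chrm4 (orange).

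Marker genes of other tissues and cells moved with the region. All 7 striatal markers were higher in the CEA libraries, with a median log2 fold change of 3.53, and all 6 neuroendocrine markers of the PVN (Avp, Oxt, Trh, Crh, Sim1 and Otp) were lower, with a summed level of 417 to 1333 CPM in PVN libraries and 34.7 to 181 CPM in CEA libraries. The 5 oligodendrocyte markers were all higher in the CEA as well, at 24633 to 41109 CPM in sum against 9203 to 15552 CPM. So were the 4 microglial markers, at 178 to 282 CPM in sum against 132 to 188 CPM, and the 1 vessel marker that could be tested. Markers of cortical and hippocampal excitatory neurons summed to 12.8 to 440 CPM over the CEA libraries and 41.3 to 83.6 CPM over the PVN libraries. Thalamic markers summed to 56.1 to 705 CPM over the CEA libraries and 351 to 684 CPM over the PVN libraries. CEA SEA replicate 3, the lowest CEA library for Chrm1, Chrm4 and Slc18a3, had the highest of these sums. CEA HT replicate 1, the highest for Chrm4, had the lowest. Of 3 markers of the medial habenula, another cholinergic site, the defining factor Pou4f1 had a median of 0 and at most 0.237 CPM. Gpr151 was at 0.160 to 1.26 CPM in the PVN and 0.132 to 0.802 CPM in the CEA, and Nwd2 at 9.11 to 15.04 CPM and 2.68 to 9.67 CPM, the 2 that could be tested being lower in the CEA. Markers of choroid plexus summed to 1051 CPM in CEA NC replicate 2, 369 CPM in CEA EA replicate 1 and 1777 CPM in CEA SEA replicate 2, and to 5.48 to 24.7 CPM in the other CEA libraries. CEA SEA replicate 2 was also the CEA library with the most Chrm1. The part of dissection and of cell make-up in the differences of the 8 genes was not tested.

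Of 4 further transcripts that mark forebrain cholinergic neurons, 3 were higher in the CEA, as Chat was. Lhx8, a transcription factor that specifies these neurons, went from 4.45 ± 2.49 CPM in the PVN to 18.1 ± 6.56 CPM in the CEA (SD, 12 libraries), a log2 fold change of 2.02 (adjusted p = 1.6e-06). The vesicle protein gene Slc10a4 differed by 1.95 and Ngfr by 1.85 on the log2 scale, and Isl1 was slightly lower at -0.34. All 4 were called, Isl1 in the other direction, where 56.3% of all genes were called, 26.9% higher and 29.4% lower.

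Of 23 further cholinergic genes, 21 could be tested between the regions, and 11 were called, 5 higher and 6 lower in the CEA. That is no larger a share than the 56.3% called among all genes. Their median log2 fold change, -0.02, was near that of all genes at -0.01. Prima1, which anchors acetylcholinesterase in the neuronal membrane, went from 20.2 ± 3.04 to 66.7 ± 10.5 CPM, a log2 fold change of 1.72 (adjusted p = 2.16e-13), opposite in direction to Ache itself. Colq, the collagen tail of the same enzyme, was higher by 1.15, and the nicotinic subunit genes Chrna5 and Chrna2 by 1.81 and 1.12, all 3 at low levels of 0.559 to 2.65 CPM on average in the 2 regions. Lower in the CEA were the fifth muscarinic receptor gene Chrm5 (log2 fold change -1.57), the nicotinic subunit gene Chrna7 (-1.49), its chaperone gene Tmem35a (-0.90) and Chrnb1 (-0.49). Chrna7 went from 39.7 ± 9.03 CPM in the PVN to 14.1 ± 3.53 CPM in the CEA.

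Among 11 genes of muscarinic signalling, 3 were higher and 2 lower in the CEA, again no larger a share than the 56.3% of all genes. Rgs4, which shortens G-protein signals, differed by a log2 fold change of 1.18, the M-current channel gene Kcnq3 by 1.12 and phospholipase Plcb1 by 1.08. The G-protein gene Gnai2 was at -0.48 and the potassium channel gene Kcnj6 at -1.34. The Gq gene Gnaq, at -0.22 (SE 0.15), and Gnao1, at 0.01 (SE 0.07), did not pass the test. These 7 were named after their values were seen.

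Within a region, no member passed the adjusted threshold between treatments. The count was 0 of 8 in edgeR for the overall comparison of 4 treatments and for each of HT against NC, EA against HT, SEA against HT and EA against SEA, in both regions, and DESeq2 with adjusted p also gave 0 of 8 in every one. By edgeR, 0.012% of all genes passed between HT and NC in the PVN and 0.0961% between EA and HT. It was 0% in each of the other treatment comparisons of either region. DESeq2 with adjusted p called 179 of 16543 genes in the PVN comparison of 4 treatments and 21 to 91, of 16307 to 16716, in each PVN pair. In the CEA it called 19 of 17046 genes in the comparison of 4 treatments and 3 to 24, of 16313 to 16466, in each pair. The counts below are therefore of members with an unadjusted p under 0.05, each beside the share of all genes with such a p, and values without such a p are named as such.

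In the PVN, the overall comparison gave an unadjusted p under 0.05 for 3 of 8 members, all receptors, and for 14.3% of all genes. They were Chrm1, Chrm3 and Chrm2, each with an adjusted p of 0.346 by edgeR. The adjusted p of all 3 fell below the threshold without PVN NC replicate 2, to 0.0420, 0.0133 and 0.0185, when 21.4% of all genes were called too. Over all alternatives, those values reached 0.756, 0.777 and 0.777.

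Surgery without needles was compared first. Chrm2 in the PVN was at 3.92, 11.95 and 8.96 CPM in NC replicates 1 to 3 and at 16.8, 16.2 and 12.9 CPM in HT. Every HT library was above every NC library, and NC replicate 1 was the lowest of all 12 PVN libraries. The difference of HT from NC was 0.88 on the log2 scale (SE 0.36, edgeR adjusted p = 0.418). Chrm3 was at 16.2, 25.3 and 22.6 CPM in NC and at 31.6, 29.2 and 35.7 CPM in HT, again without overlap, and the difference was 0.59 on the log2 scale (SE 0.18, edgeR adjusted p = 0.418).

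Of the 8 members these 2 had an unadjusted p under 0.05, as did 11% of all genes. Groups without overlap were seen for the same 2 members and for 17.1% of all genes. On leaving out PVN NC replicate 2, Chrm2 differed by 1.23 (adjusted p = 0.0354) and Chrm3 by 0.72 on the log2 scale (adjusted p = 0.0214), and 20.2% of all genes were then called. Without NC replicate 1, the lowest library for both genes, the differences were 0.54 and 0.42, with an adjusted p of 0.801 for each, the highest over all alternatives. Markers of other cells moved in the same comparison. The 6 thalamic markers had a median log2 fold change of 0.56 and the 6 neuroendocrine markers of -0.57, none of them called. The thalamic sum was 351, 532 and 512 CPM in NC and 684, 675 and 489 CPM in HT, and the neuroendocrine sum was 1059, 1002 and 1333 CPM in NC and 908, 953 and 417 CPM in HT. Blood markers summed to 968 to 1334 CPM in NC and 511 to 768 CPM in HT, and astrocyte markers to 1550 to 1988 CPM and 1241 to 1526 CPM, 2 of 4 in each list having an unadjusted p under 0.05. The sums of these 2 lists, of the neuroendocrine list and of choroid plexus markers (11.8 to 14.1 CPM in NC and 8.35 to 9.58 CPM in HT) were lower in HT without overlap. Medial habenula markers, by contrast, summed to more in HT in every library. Their part in the differences of Chrm2 and Chrm3 was not tested. The 6 other members had log2 fold changes from -0.15 to 1.13 and none had an unadjusted p under 0.05. The highest of these was Chat, at 0.379, 1.97 and 3.48 CPM in NC and 0.898, 6.30 and 5.73 CPM in HT, where the spread within the groups was wider than the gap between them (SE 0.81).

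Electroacupuncture was set against surgery alone. Chrm1 in the PVN was at 2.81, 3.21 and 3.10 CPM in HT and at 4.44, 4.37 and 3.57 CPM in EA. The EA libraries were all the higher, by a log2 fold change of 0.44 (SE 0.19, edgeR adjusted p = 0.861). Slc18a3 was at 1.92, 7.26 and 5.07 CPM in HT and at 2.86, 2.37 and 1.76 CPM in EA. HT replicate 1 lay within the EA range, and EA differed from HT by -1.03 on the log2 scale (SE 0.43, edgeR adjusted p = 0.854). Chat, its neighbour in the genome, had the like value of -1.03 (SE 0.57, edgeR adjusted p = 0.915) but no unadjusted p under 0.05. The count was 2 of 8 members against 5.67% of all genes at an unadjusted p under 0.05, and the 6 others lay between -1.03 and -0.03. Groups without overlap were seen for Chrm1 and for 11.3% of all genes. Neuroendocrine markers had a median log2 fold change of 0.44 in this comparison, 3 of the 6 at an unadjusted p under 0.05, and summed to 1121, 1038 and 896 CPM in EA. Blood markers summed to 788 to 1306 CPM in EA and 511 to 768 CPM in HT, without overlap, choroid plexus markers to 10.9 to 12.8 CPM in EA, above the HT range, and thalamic markers had a median of -0.29. None was called, and their part in these differences was not tested.

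The PVN SEA libraries, at 2.64, 2.20 and 2.48 CPM, had less Chrm1 than any library of the other 3 treatments. The share of all genes with such an order was not counted. EA against SEA, which share the surgery and the needles, had a log2 fold change of 0.76 for Chrm1 (SE 0.20, edgeR adjusted p = 0.917), with the 3 EA libraries above the 3 SEA libraries. It was 1 of 8 members, against 5.21% of all genes. The EA and SEA groups were apart in 10.1% of all genes. In this comparison 2 of 4 blood markers (median log2 fold change 0.19) had an unadjusted p under 0.05. So did 2 of the 4 transcripts that mark forebrain cholinergic neurons (median -0.38). None was called, and their part was not tested. SEA against HT gave Chrm3 at 28.03, 28.2 and 25.98 CPM in SEA, each below the HT libraries given above, with a log2 fold change of -0.23 (SE 0.09, edgeR adjusted p = 0.981), 1 of 8 members against 4.38% of all genes. Chrm1 did not overlap in that comparison either, and neither did 9.84% of all genes, but it had no unadjusted p under 0.05 (log2 fold change -0.32, SE 0.19, edgeR adjusted p = 0.981). Astrocyte markers summed to 1578 to 1798 CPM in SEA, above the HT range given above, 3 of the 4 having an unadjusted p under 0.05, and their part was not tested. The EA and SEA comparisons share the HT libraries.

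Chrm2 was the member that differed between treatments in the CEA at an unadjusted p under 0.05 in the overall comparison (edgeR adjusted p = 0.9999), as did 3.33% of all genes. It was at 9.77, 10.8 and 14.8 CPM in NC, 8.49, 5.12 and 8.53 CPM in HT, 10.4, 12.8 and 11.4 CPM in EA, and 15.2, 10.7 and 16.9 CPM in SEA. All 3 HT libraries were below those of NC, of EA and of SEA. Groups did not overlap, in either direction, for 10.4%, 9.56% and 10.1% of all genes in these comparisons. The share of all genes apart in all 3 at once was not counted. The log2 fold change was -0.65 (SE 0.27) for HT against NC, 0.63 (SE 0.25) for EA against HT, and 0.92 (SE 0.28) for SEA against HT, with edgeR adjusted p of 0.918, 0.930 and 0.959. These 3 values share the HT libraries. Astrocyte markers moved with the first: their sum was 1878, 2375 and 1719 CPM in NC and 1310, 1473 and 1367 CPM in HT, without overlap, and 3 of the 4 had an unadjusted p under 0.05 in the overall comparison. Central amygdala markers, at 1272 to 1686 CPM in HT, were higher there than in EA (997 to 1070 CPM) and in SEA (984 to 1208 CPM). The choroid plexus markers that could be tested, 3 of 5, had a median log2 fold change of -2.36 for HT against NC and 2.83 for SEA against HT. None of these marker genes was called, and their part in the differences of Chrm2 was not tested.

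Chrm1 in the CEA was at 52.4, 37.3 and 39.3 CPM in HT and at 37.5, 26.2 and 28.5 CPM in EA, the highest EA library just passing the lowest of HT. It differed by -0.50 on the log2 scale (SE 0.21, edgeR adjusted p = 0.930). Without HT replicate 1 the difference was -0.33. The 7 striatal markers had a median log2 fold change of -0.57 in this comparison with none called, their sum being 6745, 4154 and 3924 CPM in HT and 3654, 2287 and 3935 CPM in EA. Markers of cortical and hippocampal excitatory neurons had a median of -1.33, 1 of the 5 at an unadjusted p under 0.05, with overlapping sums of 12.8 to 440 CPM in HT and 43.0 to 187 CPM in EA. HT replicate 1, with the most Chrm1, had the lowest of these sums. EA replicate 2, the lowest of the EA libraries for Chrm1 and for the striatal sum, is the library with 3.80% mitochondrial counts. Their part in the difference was not tested. At an unadjusted p under 0.05 were 1 of 8 members in HT against NC (3.75% of all genes), 2 in EA against HT (3.19%), 1 in SEA against HT (3.07%) and 0 in EA against SEA (1.98%). The smallest p in the last, above 0.05, was that of Chrm2, with a log2 fold change of -0.30 (SE 0.20, edgeR adjusted p = 0.9999). Groups without overlap were seen for Chrm2 alone in the first 3 comparisons, and in 10.4%, 9.56% and 10.1% of all genes. In EA against SEA no member was apart, and 6.82% of all genes were.

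Chat, Slc18a3, Slc5a7 and Ache did not pass even the unadjusted test between treatments in the CEA. Their log2 fold changes lay between -0.18 and 0.30 over the 4 comparisons, with SEs of 0.12 to 0.39. For Chat, CEA values were 26.3, 19.9 and 15.9 CPM in NC, 38.0, 17.0 and 20.1 in HT, 38.0, 15.6 and 24.5 in EA, and 32.7, 30.7 and 16.9 in SEA. The ranges of the 4 treatments overlapped.

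**Figure D4:**
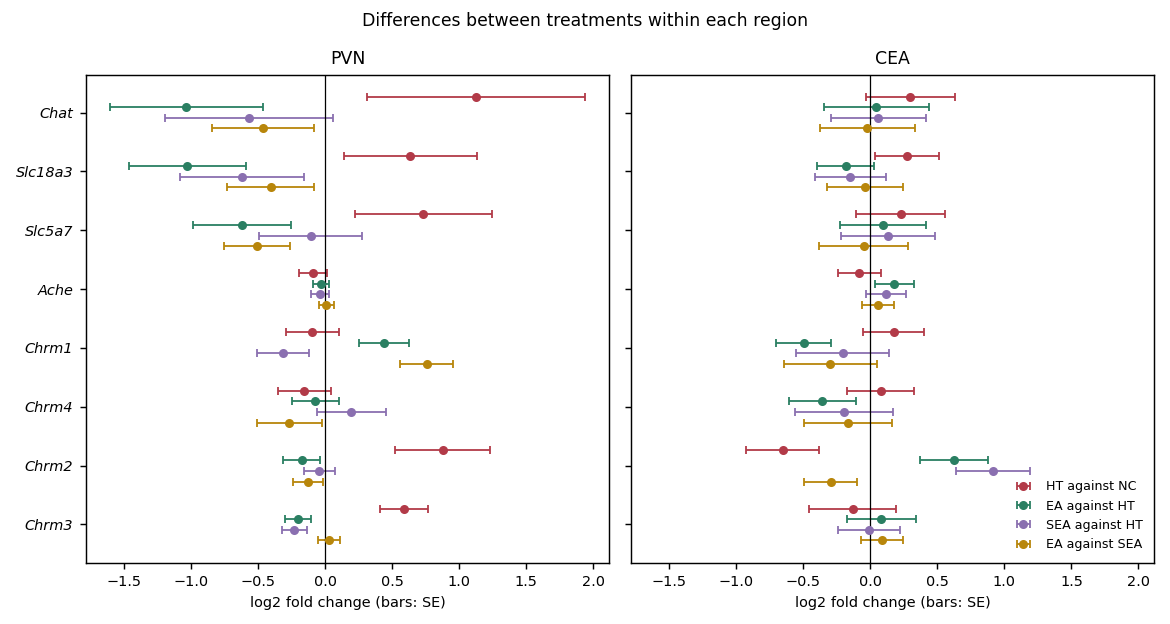
Log2 fold change between treatments (x axis, bars of 1 SE) for each gene in the PVN (left) and the CEA (right), in 4 comparisons by colour. No point passed the adjusted threshold, and Chrm2 for HT against NC lies at 0.88 in the PVN and at -0.65 in the CEA.

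Whether the regions differed in their response was tested by an interaction term. For HT against NC, Chrm2 had the largest difference, -1.56 on the log2 scale (CEA minus PVN, SE 0.49, edgeR adjusted p = 0.413), the only one of the 8 members with an unadjusted p under 0.05, which 12.1% of all genes had. On leaving out PVN NC replicate 2, it was -1.92 with an adjusted p of 0.0476, in a fit that called 3.93% of all genes. Without PVN NC replicate 1 it was -1.22 with an adjusted p of 0.758, the highest over all alternatives. For EA against HT, Chrm1 differed by -0.95 (SE 0.26, edgeR adjusted p = 0.615) and Chrm2 by 0.79 (SE 0.29, edgeR adjusted p = 0.945), 2 of 8 members against 4.52%. No member and 0% of all genes passed the adjusted threshold in either interaction by edgeR. DESeq2 with adjusted p gave 0 of 8 members as well. It called 1 of 17378 genes in the HT interaction and 49 of 17275 in the EA interaction. None of the other cholinergic genes was called by edgeR in a treatment comparison. At an unadjusted p under 0.05 there were 3 of 19 tested between HT and NC in the PVN, where 11% of all genes had such a p. They were the nicotinic subunit genes Chrnb2, Chrna4 and Chrna7 (log2 fold changes 0.65, 0.67 and 0.63, edgeR adjusted p = 0.418 for each), named after their values were seen. The other comparisons of a pair of treatments within a region had 0 to 2 of 19 or 20 tested, where 1.98% to 5.67% of all genes had such a p. In the HT interaction there were 4 of 20 tested (Chrnb2, Chrna7, Chrna6 and the collagen tail gene Colq), against 12.1% of all genes, and in the EA interaction 2 of 20, against 4.52%. Of the 11 genes of muscarinic signalling none was called either. At an unadjusted p under 0.05 were 7 in the overall PVN comparison, against 14.3% of all genes, 5 between HT and NC in the PVN, against 11%, and 4 in the HT interaction, against 12.1%. Their median log2 fold change between HT and NC in the PVN was 0.40, and they summed to 1084, 1373 and 1239 CPM in NC and 1508, 1478 and 1411 CPM in HT, without overlap. In the other treatment comparisons and the EA interaction 0 to 2 of the 11 had such a p.

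Library by library, the genes of cholinergic neurons varied together. Over 56 pairs of members, 28 in each region with 12 libraries, a two-sided permutation test with 100000 resamples and Benjamini-Hochberg adjustment over the 56 found 4 pairs in the PVN and 6 in the CEA. Chat and Slc5a7 had r = 0.96 and rho = 0.96 in the PVN (permutation p = 1e-05 for r, the smallest possible, adjusted 0.00028, and 3e-05 for rho, adjusted 0.00084) and r = 0.97 and rho = 0.96 in the CEA (1e-05 for both, adjusted 0.00028 and 0.00056). With the 2 libraries farthest from the median of Chat left out, r was 0.90 and 0.97. Chat and Slc18a3 had r = 0.86 and rho = 0.87 in the PVN (permutation p = 0.00028 and 0.00048, adjusted 0.00392 and 0.00882) and r = 0.83 and rho = 0.86 in the CEA (0.00146 and 0.00063, adjusted 0.0136 and 0.00882), r being 0.88 and 0.81 without the 2 farthest. Slc18a3 and Slc5a7 had r = 0.79 and rho = 0.80 in the PVN (permutation p = 0.00211 and 0.00312, adjusted 0.0148 and 0.0291) and r = 0.88 and rho = 0.85 in the CEA (0.00036 and 0.00089, adjusted 0.00403 and 0.00997), r being 0.67 and 0.83 without the 2 farthest. The treatment groups of 3 libraries are too small for a value within each.

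**Figure D5:**
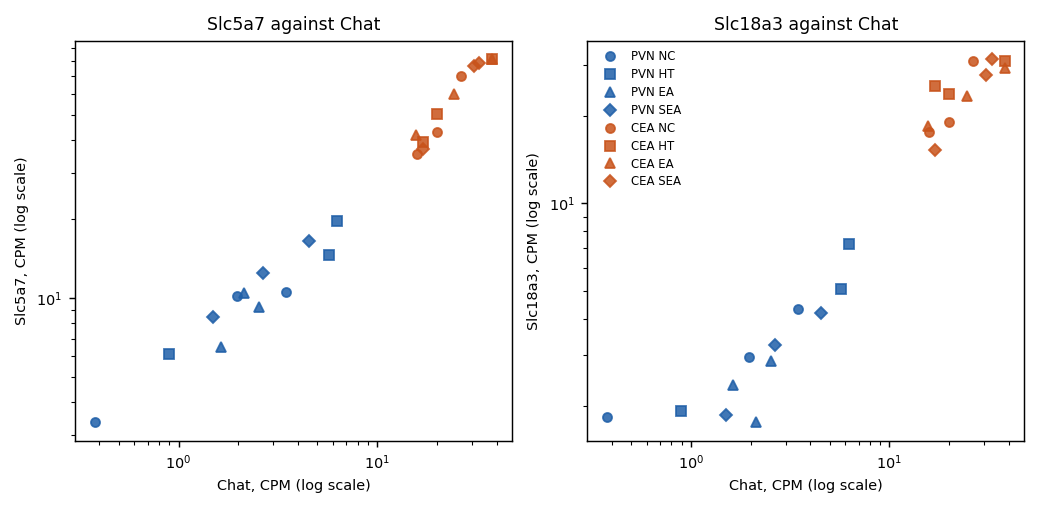
CPM of Slc5a7 (left) and of Slc18a3 (right) against CPM of Chat, both axes on a log scale, 1 point per library, coloured by region and shaped by treatment. Within each region libraries with more Chat mRNA had more of the other transcript, with r of 0.96 and 0.97 for Slc5a7 and of 0.86 and 0.83 for Slc18a3 in the PVN and the CEA.

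Of the receptor pairs, Chrm1 with Chrm4 passed for r in the CEA alone and Chrm2 with Chrm3 in the PVN alone. Chrm1 and Chrm4 had r = 0.89 and rho = 0.77 in the CEA (permutation p = 0.00016 and 0.00499, adjusted 0.00299 and 0.0399), and r was 0.76 without the 2 farthest libraries, whereas in the PVN they had r = -0.30 and rho = -0.13 (permutation p = 0.337 and 0.699, adjusted 0.590 and 0.817). Chrm2 and Chrm3 had r = 0.88 and rho = 0.66 in the PVN (permutation p = 0.00198 and 0.0226, adjusted 0.0148 and 0.147). Without the 2 farthest libraries r fell to 0.32, so that this relation rests on those libraries. In the CEA, Slc18a3 had r = 0.77 and rho = 0.66 with Chrm1 (permutation p = 0.00297 and 0.0237, adjusted 0.0185 and 0.147) and r = 0.73 and rho = 0.50 with Chrm4 (0.00633 and 0.0985, adjusted 0.0354 and 0.345). Both fell, to 0.55 and 0.52, without the 2 farthest. Ache was in none of these 10 pairs. The CEA libraries carried striatal markers at 2235 to 6745 CPM and thalamic markers at 56.1 to 705 CPM in sum. The part of these spreads was not tested.

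The genes whose pattern was most like a member were ranked by the smaller of the 2 correlations within the PVN and within the CEA, over 12 libraries each, as a description. Among the genes most like Chat were Kirrel3 at 0.84, a cell adhesion gene, and Lhx8 at 0.82. Lhx8 (0.83) and Pou3f1 (0.75) were among those for Slc18a3, and Prima1 (0.82) and Kirrel3 (0.81) among those for Slc5a7. Chrm2 was nearest to Clcn6 (0.91), Palm2 (0.91) and Usp8 (0.90), and Chrm3 to Nckap1 (0.84), Mtf2 (0.83) and Cacna1b (0.80). Chrm1 had Sdcbp2 (0.73), Hpcal4 (0.68) and Trim46 (0.67), Chrm4 had Cpne8 (0.72), Sin3a (0.68) and Ivns1abp (0.67), and Ache had Gnas (0.76), Calb2 (0.75) and Gad1 (0.74). Libraries of a region varied in markers of neighbouring tissue, as given above, and differed in depth by no more than 1.41 times.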

How the data were processed

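Strand-specific mRNA libraries of the PVN and CEA (24 libraries, 8 groups of 3, from the sample titles) were analysed. The deposited values are whole-number counts of reads for each gene, made by the authors with HISAT2 and featureCounts from reads cleaned of adapters. Versions are not given in the sources used here. The methods name the rat assembly mRatBN7.2, the submitters' processing notes list GRCh38 and hg38, and the largest gene end on chromosome 1 in the table is 282724300, so coordinates are given as deposited with no build. The table held 32883 Ensembl genes and 2149 assembled transcripts. A stray second header line (1 line) was left out. It exchanges CEA EA replicates 2 and 3, and numbers here follow the titles. How multi-mapping and overlapping reads were counted was not stated.

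Counts were tested on all genes with edgeR 4.0.16 (R 4.3.3): filterByExpr, TMM, quasi-likelihood test, two-sided, Benjamini-Hochberg, threshold 0.05. Each comparison used its own groups, with treatment as a covariate when all 24 libraries entered. Correlations used log2 CPM with a prior count of 2. A count of 0 allows 3 counts, 0.161 to 0.228 CPM, which covers counting error only. Counts were simulated with the same spread between libraries for every gene and with 200 genes changed 4-fold. Of these, 98.5% were recovered in the pooled region comparison (17768 genes), 96.5% in PVN HT against NC (16727 genes) and 84.0% in the HT interaction (17405 genes). Smaller changes, such as the treatment differences of the members, and other spreads were not simulated, so these shares do not apply to them. Alternatives were RLE size factors, library totals alone, no filter, 1 fit of all 8 groups, a replicate block, DESeq2 1.42.0 (adjusted, and unadjusted as in the study) and leaving out each library.

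The members and lists were chosen with earlier results of these data known. Named were all members between regions, members with an unadjusted p under 0.05 between treatments (or the smallest p), up to 4 other cholinergic genes called in each direction, and the 3 genes most like each member. Some genes these rules and lists name are not reported here. Of the marker symbols, Tac2, Pecam1 and Hba-a1 had no row. Same-numbered libraries deviated together, each pair with r over 0.1, for NC between the regions (0.130 to 0.293) and for CEA HT against NC (0.180 to 0.294), and in no other comparison. The source of that pairing is these correlations, not the labels. Neighbouring columns of the table join PVN and CEA libraries of different numbers in HT and in EA. Column order was not used to pair libraries, and which regions share a rat is not given in the sources used here, so a block by number may not be a block by rat.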

Additional observations from a re-analysis of the deposited data

Results flagged for a closer look

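Chrm2 stands here because its HT and NC libraries lay in opposite orders in the 2 regions. All 3 PVN HT libraries were above all 3 PVN NC libraries, and all 3 CEA HT libraries were below all 3 CEA NC libraries, while HT and NC did not overlap, in either direction, for 17.1% of PVN genes and 10.4% of CEA genes. Neither difference passed the test (edgeR adjusted p = 0.418 and 0.918). The log2 fold change of HT against NC in the CEA minus that in the PVN was -1.56. The interaction test of this difference gave an edgeR adjusted p of 0.413, which did not pass the threshold.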

How the results depend on the processing

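The region calls of Chat, Slc18a3, Slc5a7, Chrm1, Chrm4 and Ache over all 24 libraries kept their direction and threshold under every alternative run, and the member count stayed at 6 or 7. Leaving out 1 library gave 4 to 7 members called for the CEA against the PVN in HT, 0 to 3 for the overall PVN comparison, 0 to 2 for PVN HT against NC and 0 to 1 for the HT interaction, while the share of all genes called ran from 8.16% to 29.2%, 0% to 21.4%, 0% to 20.2% and 0% to 3.93% in these fits. With the unadjusted DESeq2 p, the treatment counts of 0 became 3 for the overall PVN comparison, 2 for PVN HT against NC, 2 for PVN EA against HT, 2 for PVN EA against SEA, 1 for the overall CEA comparison, 1 for CEA HT against NC, 2 for CEA EA against HT, 1 for CEA SEA against HT, 1 for the HT interaction and 2 for the EA interaction. Of the genes that passed the low-count filter, such a p was held by 2809 of 17211 in the PVN comparison of 4 treatments. It was held by 1894 of 16727 in PVN HT against NC and by 2361 of 17405 in the HT interaction. In each of the 7 others 522 to 833 genes held it, of 16393 to 17299. Signs turned for Chrm3 in the CEA against the PVN in NC (-0.044 with library totals alone, and -0.14 to 0.38 on leaving out 1 library) and for Chrm2 in SEA (-0.17 to 0.15 on leaving out 1 library, the highest without CEA SEA replicate 2). None of these was called, and the cause was not tested.

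With the replicate block, where the numbers paired the libraries, 6 members were called for the regions in NC and 0 for CEA HT against NC, as without it. It changed no call there. In HT between the regions, where same-numbered libraries did not deviate together, the block gave 6 calls, Chat having an adjusted p of 0.0561.

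Chat in the PVN rested on as few as 6 counts in a library.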
